A study of Homo sapiens with 12 samples.

Results

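The human mitochondrial genome carries 37 genes, all of which were followed here: 13 mRNAs for subunits of the respiratory chain, 2 rRNAs of the mitochondrial ribosome and 22 tRNAs. The members were taken by annotation, as every gene with an MT- symbol on chromosome M in GENCODE, out of 61533 genes in the deposited tables. They were set side by side in PEO-4 and SKOV-3, lines of ovarian carcinoma, and in T1074, an immortalized line of ovarian epithelium. Of the 37, all 13 mRNAs and both rRNAs passed the filter on low counts and were tested, and the 22 tRNAs did not. The 3 classes are described apart, because rRNA was depleted from the RNA before sequencing and the tRNAs are shorter than the fragments that were read.

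Mitochondrial DNA is a small circle transcribed from both of its strands into long precursor RNAs. The tRNAs lie between the other genes, and their excision by the enzymes RNase P and ELAC2 frees the mRNAs and rRNAs. Most of these RNAs then receive short poly(A) tails. Since the genes of a strand start out in shared precursors, their unequal levels in a cell are attributed to processing and stability, with the LRPPRC and SLIRP proteins known to stabilize most of the mRNAs. All the proteins that do this work are encoded in the nucleus, as are most subunits of complexes I, III and IV and of the ATP synthase, while the mitochondrial mRNAs supply the core subunits of those complexes.

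PEO-4 was cultured in RPMI medium with L-glutamine and is labelled ovarian cystadenocarcinoma, a high-grade serous carcinoma line by the study's account. SKOV-3 was cultured in McCoy's medium and is labelled ovarian serous cystadenocarcinoma, although the study calls it clear cell carcinoma. T1074, immortalized with SV-40 and labelled ovarian epithelial cells, was cultured in Prigrow I medium. Every line was labelled wild type, received fetal bovine serum and penicillin-streptomycin, and gave 4 libraries of rRNA-depleted total RNA. Each line is a single line in its own medium, so that line, disease and medium cannot be told apart. The labels speak of replicates without saying that they were separate cultures, and p-values therefore measure the spread between these libraries, which may be technical.

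A library held 19780836 to 55739060 expected counts, that is, fragments assigned to genes. T1074 replicate 1 had the lowest total and stood apart, with nuclear rRNA and rDNA-like genes holding 19.5% of its counts, while they held 0.0810% to 6.13% elsewhere. The epithelial keratins KRT8 and KRT18 averaged 616 and 328 CPM (counts scaled to a common library total with TMM factors) in T1074, whereas EPCAM, CDH1, PAX8 and CLDN3 averaged 0.0964, 0.354, 0.0951 and 0.126 CPM there. Of the 10 epithelial markers, 1 was under 1 CPM in PEO-4 and 0 in SKOV-3, against 4 in T1074. The 9 fibroblast markers summed to 70.3 to 111 CPM in PEO-4, 10.4 to 45.2 CPM among SKOV-3 libraries, and 284 to 1664 CPM in T1074, with 7 of them under 1 CPM in PEO-4, where THY1 alone averaged 81.7 CPM, and 4 in SKOV-3, against 2 in T1074. The 8 immune and endothelial markers summed to 2.24 to 3.01 CPM in PEO-4, 3.65 to 8.60 CPM in SKOV-3 and 9.82 to 25.5 CPM in T1074, with 7, 6 and, in T1074, 6 of them under 1 CPM. Their part in the values of the mitochondrial genes was not tested.

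The gene order matters for reading the values. On the plus strand of the reference lie 12 mRNAs, both rRNAs and 14 tRNAs, and on the minus strand MT-ND6 and 8 tRNAs. Several mRNAs overlap, so that a fragment can belong to more than 1 gene and is divided by estimate. The overlaps are shown with the shared bases in capitals, from GENCODE 44 on GRCh38: 46 bases between MT-ATP8 and MT-ATP6 (chrM:8512-8587, plus strand), 7 bases between MT-ND4L and MT-ND4 (chrM:10745-10781, plus strand) and 1 base between MT-ATP6 and MT-CO3 (chrM:9192-9222, plus strand).
MT-ATP8 and MT-ATP6: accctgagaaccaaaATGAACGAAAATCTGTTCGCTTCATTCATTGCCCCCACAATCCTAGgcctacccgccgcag
MT-ND4L and MT-ND4: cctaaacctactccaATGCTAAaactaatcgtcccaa
MT-ATP6 and MT-CO3: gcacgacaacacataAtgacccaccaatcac
The capitals of the first 2 lines open with the ATG start codon of the downstream gene. Of the 13 mRNAs, 6 (MT-ND1, MT-ND2, MT-CO3, MT-ND3, MT-ND4 and MT-CYB) end in the annotation within a codon, after a lone T or TA, where the poly(A) tail is known to complete the stop codon.

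Among the tRNAs, MT-TA (tRNA for alanine, chrM:5587-5655, minus strand) had the most fragments, and MT-TS2 (1 of the serine tRNAs, chrM:12207-12265, plus strand) is the shortest and had none. They are printed to show how short these genes are beside the sequenced fragments, whose mean length was 209 to 223 bases in the 12 libraries.
MT-TA: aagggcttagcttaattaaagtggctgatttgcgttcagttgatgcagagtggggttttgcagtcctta
MT-TS2: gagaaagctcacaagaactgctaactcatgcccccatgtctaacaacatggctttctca

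The 13 mRNAs together took a small share of each library, and that share was lowest in SKOV-3. It was 0.380%, 0.298%, 0.270% and 0.290% of all counts in the 4 PEO-4 libraries, 0.125%, 0.130%, 0.101% and 0.0843% in SKOV-3, and 0.318%, 0.180%, 0.192% and 0.200% in T1074. The means were 0.309% ± 0.0484 in PEO-4, 0.110% ± 0.0213 in SKOV-3 and 0.222% ± 0.0642 in T1074 (SD, n = 4 each). SKOV-3 did not overlap either of the other lines, and PEO-4 and T1074 overlapped through T1074 replicate 1. The order of PEO-4 and T1074 depended on the unit: as summed TPM (a unit that divides by transcript length and has a fixed sum per library), the mRNAs came to 1286 ± 85.0 in PEO-4 and 580 ± 117 in SKOV-3, against 1615 ± 584 in T1074. RN7SL genes, which encode the RNA of the signal recognition particle, held 12.99% to 14.2% of counts in PEO-4, 15.7% to 19.5% among SKOV-3 libraries, and 7.48% to 16.1% in T1074, and their part in this reversal was not tested. The libraries are bulk RNA, in which fewer cells with an RNA and less RNA per cell cannot be told apart.

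The mRNAs called higher in PEO-4 than in T1074, on counts scaled with TMM factors, were those of complex IV. This is cytochrome c oxidase, which passes electrons to oxygen. MT-CO1, its catalytic subunit with the heme and copper site, had 1560, 1024, 891 and 1149 CPM in PEO-4, 452, 476, 354 and 265 CPM in SKOV-3, and 678, 343, 427 and 503 CPM in T1074. Every PEO-4 library was above every library of the other lines, while SKOV-3 and T1074 overlapped. The log2 fold change was 1.25 ± 0.24 (SE) for PEO-4 against T1074, with an adjusted p of 0.000262 in edgeR's quasi-likelihood test, and -0.33 ± 0.23 for SKOV-3 against T1074, with an adjusted p of 0.219. The second value passed the threshold when libraries were scaled by their total or by the nuclear protein-coding counts (edgeR adjusted p = 0.0332 and 0.0477, within a range of 0.0332 to 0.646 over the alternatives).

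MT-CO3, a core subunit beside MT-CO1, gave the largest difference of the 13 between PEO-4 and T1074. It had 650, 595, 488 and 529 CPM in PEO-4, 326, 296, 214 and 136 CPM in SKOV-3, and 288, 265, 193 and 159 CPM in T1074. The PEO-4 libraries again lay above all the others, and SKOV-3 and T1074 covered much the same range. The log2 fold change was 1.32 ± 0.25 (SE) for PEO-4 against T1074 (edgeR adjusted p = 0.000215) and 0.11 ± 0.24 for SKOV-3 against T1074 (edgeR adjusted p = 0.716). MT-CO2, which holds the first copper site to receive electrons from cytochrome c, was intermediate, with 263, 191, 163 and 194 CPM in PEO-4, 99.4, 103, 67.7 and 53.0 CPM in SKOV-3, and 164, 95.5, 125 and 157 CPM in T1074. Replicate 3 of PEO-4 lay just under replicate 1 of T1074, and replicates 1 and 2 of SKOV-3 were above replicate 2 of T1074, so that both carcinoma lines overlapped T1074. It was higher in PEO-4 than in T1074 by 0.58 ± 0.22 on the log2 scale (edgeR adjusted p = 0.0301) and lower in SKOV-3 than in T1074, at -0.74 ± 0.23 (edgeR adjusted p = 0.00928). The first of these calls was lost without PEO-4 replicate 1, without T1074 replicate 2, without T1074 replicate 3 or with scaling by library total (edgeR adjusted p = 0.0564, 0.102, 0.0591 and 0.0571, within a range of 0.00462 to 0.102 over the alternatives). As deposited TPM, without TMM factors, MT-CO2 averaged 114 ± 7.10 in PEO-4, below 132 ± 27.5 in T1074 (SD). MT-CO1 and MT-CO3 kept higher mean TPM in PEO-4, but their ranges overlapped those of T1074. MT-CO1 had 203 to 258 TPM in PEO-4 and 116 to 231 TPM in T1074. MT-CO3 had 249 to 294 TPM in PEO-4 and 121 to 284 TPM in T1074. The cause was not tested.

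**Figure D1:**
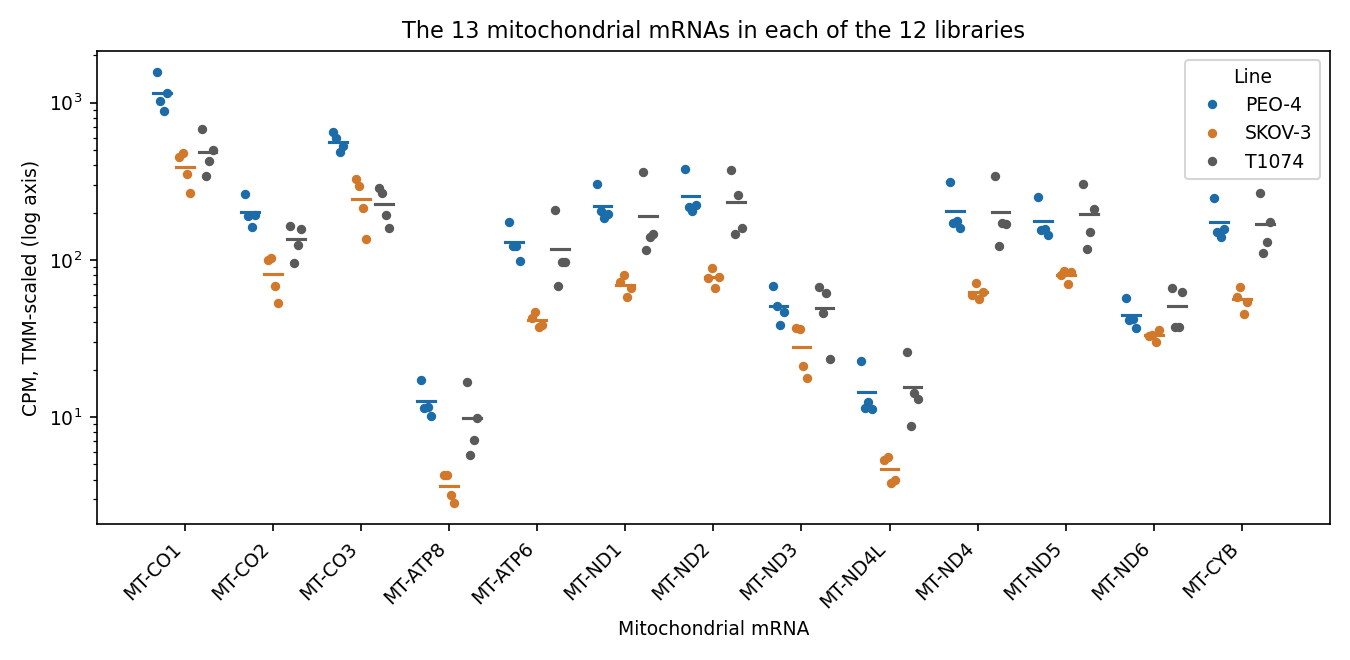
CPM with TMM factors (log axis) of the 13 mitochondrial mRNAs, ordered by complex, in each of the 12 libraries, with PEO-4, SKOV-3 and T1074 from left to right for each gene. Points are libraries and bars are means of 4; the SKOV-3 points lie under the T1074 points for most genes, while for MT-CO1 and MT-CO3 they overlap and PEO-4 stands above both.

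The mRNAs of the ATP synthase and of complex III were lower in SKOV-3 than in T1074 and were not called in PEO-4. MT-ATP6 encodes the subunit of the proton channel of ATP synthase and MT-ATP8 a small membrane subunit, and they share a transcript. MT-ATP6 had 174, 122.7, 122 and 98.5 CPM in PEO-4, 42.4, 46.7, 37.2 and 38.5 CPM in SKOV-3, and 207, 68.1, 96.4 and 96.5 CPM in T1074. The 4 SKOV-3 libraries were below the 4 T1074 libraries, with a log2 fold change of -1.504 ± 0.28 (edgeR adjusted p = 0.000237), and PEO-4 and T1074 overlapped, at 0.14 ± 0.27 (edgeR adjusted p = 0.643). MT-ATP8 averaged 12.6 ± 3.12 CPM in PEO-4 and 3.66 ± 0.750 CPM in SKOV-3, against 9.89 ± 4.90 CPM in T1074 (SD, n = 4 each), and had a log2 fold change of -1.42 ± 0.29 for SKOV-3 against T1074 (edgeR adjusted p = 0.000647). MT-CYB, cytochrome b and the only mitochondrial gene of complex III, had 248, 149, 140 and 158 CPM in PEO-4, 57.97, 67.6, 45.1 and 54.0 CPM in SKOV-3, and 266, 110, 129 and 174 CPM in T1074. Its log2 fold change was 0.04 ± 0.25 for PEO-4 against T1074 (edgeR adjusted p = 0.909) and -1.60 ± 0.26 for SKOV-3 against T1074 (edgeR adjusted p = 7.07e-05).

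Complex I, the NADH dehydrogenase that feeds electrons into the chain, takes 7 of the 13 mRNAs, and all 7 were lower in SKOV-3 than in T1074. MT-ND4, a proton-pumping subunit, had 314, 171, 176 and 160 CPM in PEO-4, 59.9, 70.8, 56.2 and 62.3 CPM in SKOV-3, and 340, 123.1, 173 and 169 CPM in T1074. SKOV-3 lay below every T1074 library, at a log2 fold change of -1.69 ± 0.28 (edgeR adjusted p = 9.85e-05), while PEO-4 gave 0.03 ± 0.27 against T1074 (edgeR adjusted p = 0.925). MT-ND4L, which shares 7 bases with MT-ND4, had the lowest log2 fold change of the mRNAs, -1.71 ± 0.31 (edgeR adjusted p = 0.000212). MT-ND2, another pump subunit, averaged 256 ± 82.6 CPM in PEO-4 and 77.5 ± 9.18 CPM in SKOV-3, against 234 ± 105.1 CPM in T1074, a log2 fold change of -1.60 ± 0.28 for SKOV-3 against T1074 (edgeR adjusted p = 0.000134). MT-ND1, at the site where ubiquinone binds, averaged 221 ± 54.4 CPM in PEO-4 and 69.1 ± 9.19 CPM in SKOV-3, against 190 ± 114 CPM in T1074, and gave -1.46 ± 0.30 (edgeR adjusted p = 0.000599). MT-ND5, the longest of the 13 mRNAs at 1812 bases and a pump subunit as well, averaged 176 ± 49.1 CPM in PEO-4 and 79.8 ± 6.50 CPM in SKOV-3, against 195 ± 82.0 CPM in T1074, and gave -1.29 ± 0.25 (edgeR adjusted p = 0.000372).

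The smallest differences of complex I were in MT-ND3 and MT-ND6. MT-ND3, a small membrane subunit, had 67.8, 51.2, 38.7 and 46.6 CPM in PEO-4, 36.6, 36.1, 21.0 and 17.6 CPM in SKOV-3, and 66.8, 45.9, 61.7 and 23.5 CPM in T1074. SKOV-3 and T1074 overlapped, at a log2 fold change of -0.83 ± 0.31 (edgeR adjusted p = 0.0271). That call was lost without SKOV-3 replicate 3, SKOV-3 replicate 4, T1074 replicate 1 or T1074 replicate 3 (edgeR adjusted p = 0.0812, 0.0892, 0.0938 and 0.0763, within a range of 0.00276 to 0.0938 over the alternatives). MT-ND6, the only mRNA of the minus strand, had 57.1, 41.7, 42.3 and 36.8 CPM in PEO-4, 32.8, 33.5, 30.2 and 35.7 CPM in SKOV-3, and 66.1, 37.5, 37.3 and 62.4 CPM in T1074. SKOV-3 was below T1074 without overlap, by a log2 fold change of -0.62 ± 0.19 (edgeR adjusted p = 0.0104), less than for any other mRNA called lower in this comparison. PEO-4 gave -0.19 ± 0.19 against T1074 (edgeR adjusted p = 0.381).

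MT-ND6 also differs from the other mRNAs in its bases, with 35.6% G, against 6.28% in MT-ATP8 to 16.2% in MT-CO1. The library kit keeps the strand of the RNA, but whether strand was used in counting is not given in the sources used here. Of the counts of the nuclear rRNA and rDNA-like genes, 99.7% lay on 4 genes annotated on the minus strand, opposite to the 5.8S rRNA genes of the same repeats. Fragments of MT-ND6 and of RNA transcribed from the other strand across it therefore cannot be told apart.

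Counted over the 15 tested mitochondrial genes, PEO-4 against T1074 had 3 called higher, the 3 mRNAs of complex IV, which is 3 of 15 beside 36.3% of all 19898 tested genes. None was called lower, beside 37.8% of all genes. In edgeR 0 were lower at an unadjusted p under 0.05, and in DESeq2 0 at an adjusted p under 0.05. The median log2 fold change of the 13 mRNAs was 0.13, beside -0.01 over all genes. Without T1074 replicate 1, 6 genes were called higher, with MT-ND1, MT-ATP8 and MT-ATP6 added at log2 fold changes of 0.73, 0.73 and 0.57 (edgeR adjusted p = 0.00201, 0.0136 and 0.0126, within ranges of 0.00201 to 0.929, 0.0136 to 0.619 and 0.0126 to 0.972 over the alternatives).

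SKOV-3 against T1074 had 13 of the 15 called lower, 11 mRNAs and both rRNAs, beside 34.5% of all tested genes, and those not called were MT-CO1 and MT-CO3. None was called higher, beside 33.3% of all genes. In edgeR 0 were higher at an unadjusted p under 0.05, and in DESeq2 0 at an adjusted p under 0.05. The median log2 fold change of the 13 mRNAs was -1.42, beside -0.03 over all genes. For 9 of the 13 mRNAs the 4 SKOV-3 libraries did not overlap the 4 T1074 libraries. The share of all tested genes without such overlap was not counted, so this number has no background to be read against.

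PEO-4 against SKOV-3 had 14 of the 15 called higher, beside 38.5% of all tested genes, and none called lower, beside 36.7%. In edgeR 0 were lower at an unadjusted p under 0.05, and in DESeq2 0 at an adjusted p under 0.05. The median log2 fold change of the mRNAs was 1.63, beside 0.05 over all genes. For all 13 mRNAs and both rRNAs the lines did not overlap, but the share of all tested genes without overlap was not counted here either. The largest value among the mRNAs was that of MT-ATP8, 1.78 ± 0.29 (edgeR adjusted p = 7.27e-05), and MT-CO1, MT-CO2 and MT-CO3 gave 1.58 ± 0.24, 1.33 ± 0.23 and 1.22 ± 0.25 (edgeR adjusted p = 3.15e-05, 0.000102 and 0.00042). MT-ND6 was not called, at 0.43 ± 0.19 (edgeR adjusted p = 0.0543, and 0.00728 to 0.139 over the alternatives). MT-ND3, at 0.87 ± 0.31 (edgeR adjusted p = 0.0182), lost its call without PEO-4 replicate 1, SKOV-3 replicate 3 or SKOV-3 replicate 4 (edgeR adjusted p = 0.0507, 0.0591 and 0.0609, within a range of 0.0028 to 0.0609 over the alternatives). A difference among the 3 lines of any kind was called for all 15, beside 90.4% of all tested genes.

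**Figure D2:**
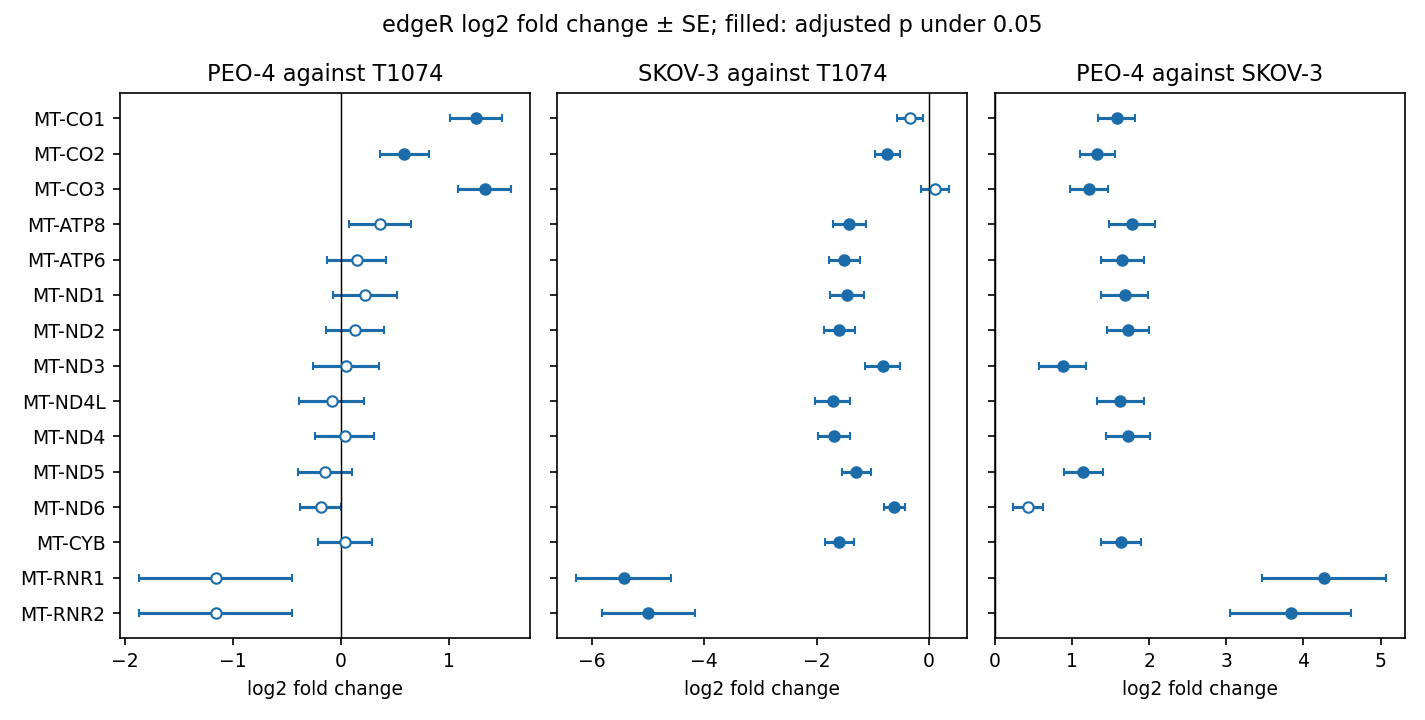
Log2 fold change of each tested mitochondrial gene for PEO-4 against T1074, SKOV-3 against T1074 and PEO-4 against SKOV-3, from the edgeR fit of the 12 libraries (each panel has its own x axis). Points are estimates, bars are standard errors and filled points have an adjusted p under 0.05; the 3 filled points of the first panel are MT-CO1, MT-CO2 and MT-CO3, and MT-RNR1 and MT-RNR2 have the widest errors in all panels.

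In the make-up of the mRNA pool by complex, T1074 lay apart from both carcinoma lines for complexes I, III and IV. Complex IV mRNAs held 60.2% ± 2.68 of the counts of the 13 mRNAs in PEO-4 and 60.1% ± 6.50 in SKOV-3, against 42.0% ± 4.88 in T1074 (SD, n = 4 each). The T1074 libraries, at 35.8% to 47.5%, lay below those of PEO-4, at 57.5% to 63.3%, and of SKOV-3, at 50.6% to 65.2%. Complex I mRNAs held 27.7% to 32.4% in PEO-4, 27.0% to 38.8% among SKOV-3 libraries, and 40.2% to 48.7% in T1074. MT-CYB of complex III held 5.08% to 5.77%, 4.31% to 6.02% and, in T1074, 7.14% to 9.25%, and the ATP synthase mRNAs held 3.67% to 5.07%, 3.47% to 4.60% and, in T1074, 4.98% to 7.09%, where PEO-4 overlapped T1074. These shares do not depend on how libraries are scaled, they sum to a whole, and they were looked at after the values of single genes had been seen, so no test was run on them.

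**Figure D3:**
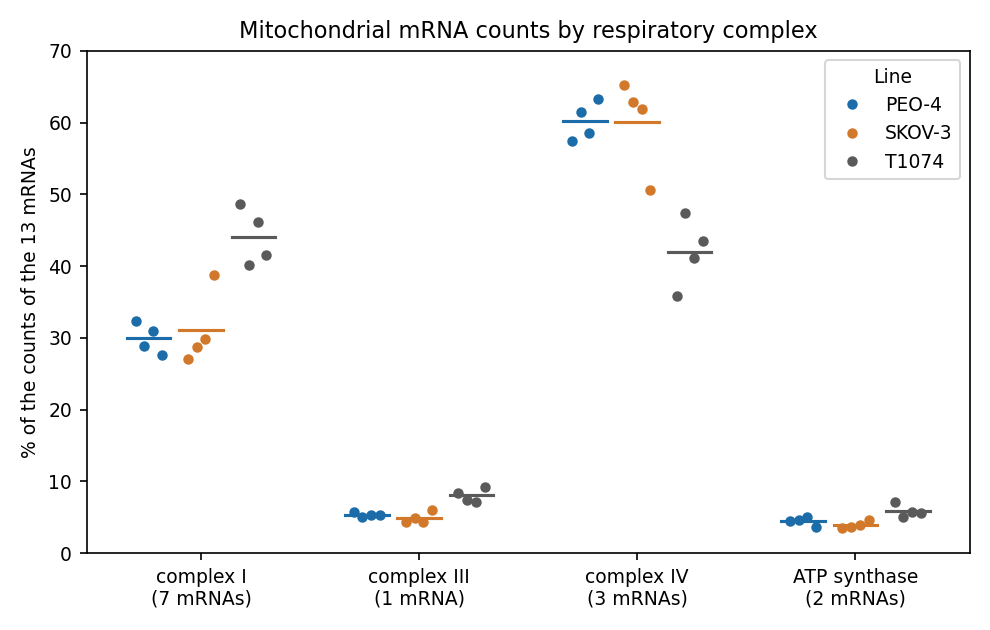
Share of the counts of the 13 mitochondrial mRNAs (percent, axis from 0) held by the mRNAs of each respiratory complex, in PEO-4, SKOV-3 and T1074 from left to right. Points are libraries and bars are means of 4; complex IV lies at 50.6% to 65.2% in the carcinoma lines and at 35.8% to 47.5% in T1074, and complex I in the opposite order.

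Ratios of 2 mitochondrial genes within a library compare their balance with no scaling between libraries. Of 8 ratios in 3 pairs of lines, 24 tests in all, 7 had the smallest p that the exact two-sided permutation test of 4 against 4 libraries can give, 0.0286 (2 of 70 arrangements), which became 0.098 after Benjamini-Hochberg adjustment, so that none passed. MT-CO2 to MT-CO1 did not overlap between any lines, with 0.177 ± 0.0091 in PEO-4 and 0.207 ± 0.0136 in SKOV-3, against 0.281 ± 0.0303 in T1074 (SD, n = 4 each). The differences in mean log2 ratio were -0.67 for PEO-4 against T1074, -0.44 for SKOV-3 against T1074 and -0.23 for PEO-4 against SKOV-3. MT-ND6 to MT-ND5, neighbours on opposite strands, was 0.229 to 0.269 in PEO-4, 0.394 to 0.428 among SKOV-3 libraries, and 0.217 to 0.320 in T1074, and stood apart in SKOV-3 with differences of 0.63 from T1074 and, for PEO-4 against SKOV-3, of -0.70. MT-ND1 to MT-RNR2 was 0.0750 to 0.250 in PEO-4, 0.217 to 1.77 among SKOV-3 libraries, and 0.0325 to 0.0742 in T1074, and moved with the rRNA left in a library.

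The other ratios overlapped between lines. MT-CO3 to MT-ATP6, which are cut apart from 1 precursor with no tRNA between them, was 3.74 to 5.37 in PEO-4, 3.54 to 7.70 among SKOV-3 libraries, and 1.39 to 3.89 in T1074, with T1074 replicate 2 reaching both other lines (exact permutation p = 0.0571 for PEO-4 and 0.0571 for SKOV-3, adjusted p = 0.125 for both). MT-ATP8 to MT-ATP6, on a shared transcript, was 0.0936 to 0.102, 0.0741 to 0.101 and, in T1074, 0.0744 to 0.103, and MT-ND4L to MT-ND4, also on a shared transcript, was 0.0670 to 0.0725, 0.0642 to 0.0889 and, in T1074, 0.0709 to 0.0824. The differences of these log2 ratios between lines ran from -0.13 for MT-ND4L to MT-ND4 to 0.20 for MT-ATP8 to MT-ATP6, both for PEO-4 against T1074. MT-CYB to MT-ND1 was 0.735 to 0.821 in PEO-4, 0.778 to 0.847 among SKOV-3 libraries, and 0.740 to 1.20 in T1074.

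**Figure D4:**
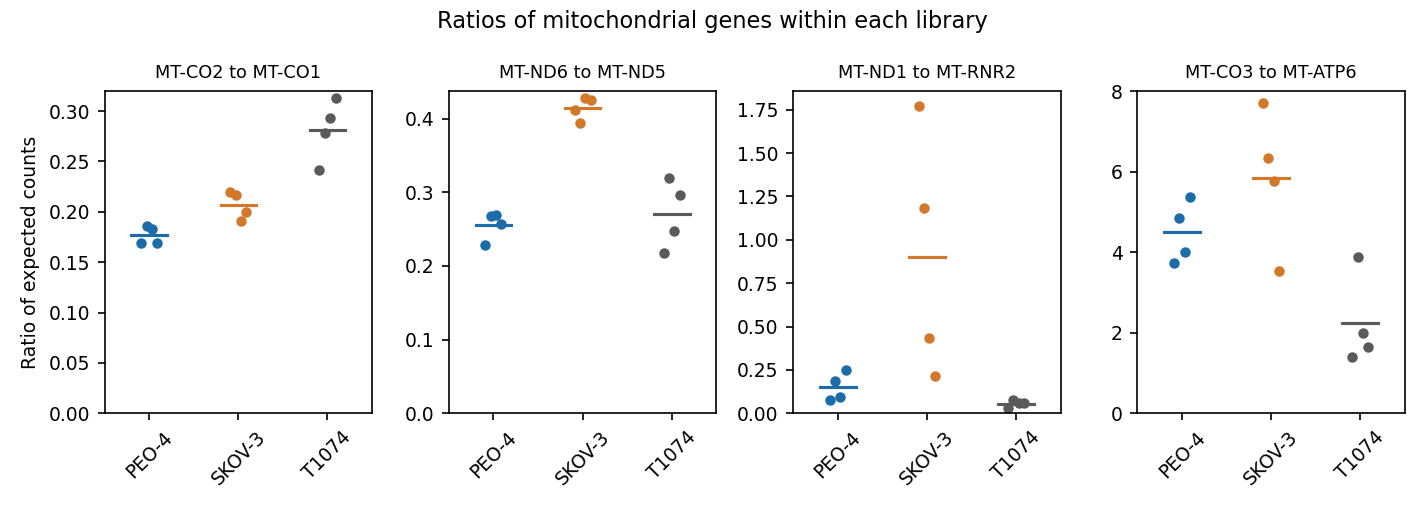
Ratios of the expected counts of 2 mitochondrial genes in each library (axes from 0) for PEO-4, SKOV-3 and T1074 from left to right. Points are libraries and bars are means of 4; MT-CO2 to MT-CO1 does not overlap between the lines, MT-ND6 to MT-ND5 is above 0.39 in SKOV-3 and under 0.33 elsewhere, and MT-ND1 to MT-RNR2 spreads widely within SKOV-3.

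Libraries of a line differed, and not in the same genes. The coefficient of variation over 4 libraries had a median over the 13 mRNAs of 24.8% in PEO-4 and 16.6% in SKOV-3, against 42.0% in T1074. In PEO-4 and T1074 replicate 1 was the highest for all 13 mRNAs, as in MT-ND1, at 302 CPM against 185 to 203 CPM in the other PEO-4 libraries and 360 CPM against 116 to 145 CPM in the other T1074 libraries. In SKOV-3 the spread lay in MT-CO1, MT-CO2, MT-CO3 and MT-ND3, with coefficients of 25.1%, 30.3%, 35.2% and 35.6%, where replicates 3 and 4 were the lowest. Replicate 4 was not low in MT-ND5 or MT-ND6, whose coefficients in SKOV-3 were 8.14% and 6.81%. In T1074, replicate 4 was the lowest for MT-CO3 and MT-ND3 and above replicates 2 and 3 for MT-CO1, MT-CO2, MT-ND5, MT-ND6 and MT-CYB.

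To compare levels between genes, values per length are needed, and for these genes the order depended on how length was counted. By TPM, which uses the effective length (the number of positions at which a fragment can start), MT-CO3 was first in PEO-4 with 265 ± 19.9 TPM and in SKOV-3 with 133 ± 43.6 TPM, while MT-ATP8 was first in T1074 with 218 ± 109 TPM, ahead of MT-CO3 with 190 ± 81.1 TPM. MT-ND5 was last in all 3 lines, at 29.04 ± 4.08 TPM in PEO-4, 15.6 ± 0.807 TPM in SKOV-3 and 55.4 ± 22.6 TPM in T1074. The short MT-ATP8 has 207 bases but an effective length of 19.9 to 24.5, so its TPM rests on a division by a small number. As counts per kilobase of full length, relative to the library total without TMM factors, MT-ATP8 came to 58.6 in PEO-4 and 16.7 in SKOV-3, against 50.7 in T1074, and stood next to last or last, while MT-CO1 led with 722 in PEO-4 and 338 in T1074 and MT-CO3 with 293 in SKOV-3. The ranges of neighbours in the TPM order overlapped in 10 of 12 cases in PEO-4 and SKOV-3 and in 12 of 12 in T1074. Since both genes of a pair are read in the same libraries, their order was also compared within each library, where 7 of 12 neighbours in PEO-4, 7 of 12 in SKOV-3 and 3 of 12 in T1074 stood in the same order in all 4 libraries. MT-ATP6 stood above MT-CYB in all 4 libraries of each line. Of the 78 pairs of mRNAs, 60 in PEO-4, 67 in SKOV-3 and 53 in T1074 stood in the same order on both scales.

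The 2 rRNAs, MT-RNR1 of the small and MT-RNR2 of the large ribosomal subunit, are targets of rRNA depletion, and what is left of them varied more than any mRNA. MT-RNR1 had 2877, 724, 1432 and 516 CPM in PEO-4, 27.4, 36.1, 78.3 and 146 CPM in SKOV-3, and 8187, 936, 1518 and 1760 CPM in T1074. MT-RNR2 had 4030, 1083, 1930 and 783 CPM in PEO-4, 40.8, 67.4, 134 and 306 CPM in SKOV-3, and 11081, 1564, 2479 and 2350 CPM in T1074. SKOV-3 was below every other library for both, PEO-4 and T1074 overlapped, and T1074 replicate 1 was several times above the rest of its line. MT-RNR1 had log2 fold changes of -1.16 ± 0.71 for PEO-4 against T1074 (edgeR adjusted p = 0.153), -5.43 ± 0.85 for SKOV-3 against T1074 (edgeR adjusted p = 5.24e-05) and 4.27 ± 0.80 for PEO-4 against SKOV-3 (edgeR adjusted p = 0.000228). MT-RNR2 had -1.16 ± 0.71, -4.99 ± 0.83 and 3.83 ± 0.78 in the same comparisons (edgeR adjusted p = 0.153, 9.24e-05 and 0.000468). Without T1074 replicate 1 the SKOV-3 values against T1074 were -4.28 and -3.95, and without SKOV-3 replicate 4 they were -6.03 and -5.75, for MT-RNR1 and MT-RNR2 in that order. Without SKOV-3 replicate 4 the PEO-4 values against SKOV-3 were 4.87 and 4.59.

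The nuclear rRNA that escaped depletion moved with the mitochondrial rRNA from library to library. Nuclear rRNA and rDNA-like genes took 6.13%, 1.92%, 3.86% and 1.44% of counts in PEO-4, 0.0810%, 0.0995%, 0.354% and 0.636% in SKOV-3, and 19.5%, 4.06%, 4.55% and 4.69% in T1074. MT-RNR1 and MT-RNR2 together took 0.610%, 0.183%, 0.345% and 0.127% in PEO-4, 0.00632%, 0.00966%, 0.0210% and 0.0425% in SKOV-3, and 1.94%, 0.303%, 0.423% and 0.437% in T1074. Within each line the libraries stood in the same order for both. Per 100 counts of nuclear rRNA there were 8.86 to 9.94 counts of mitochondrial rRNA in PEO-4, 5.92 to 9.72 among SKOV-3 libraries, and 7.46 to 9.96 in T1074, so on this denominator, chosen after the data were seen, the 3 lines overlapped with means of 9.31 ± 0.513 in PEO-4 and 7.53 ± 1.65 in SKOV-3, against 9.01 ± 1.08 in T1074 (SD, n = 4 each). MT-RNR2 to MT-RNR1 was 1.44 ± 0.08 in PEO-4 and 1.79 ± 0.258 in SKOV-3, against 1.498 ± 0.178 in T1074 (SD, n = 4 each), with adjusted exact permutation p of 0.686 for PEO-4 and 0.196 for SKOV-3 against T1074.

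**Figure D5:**
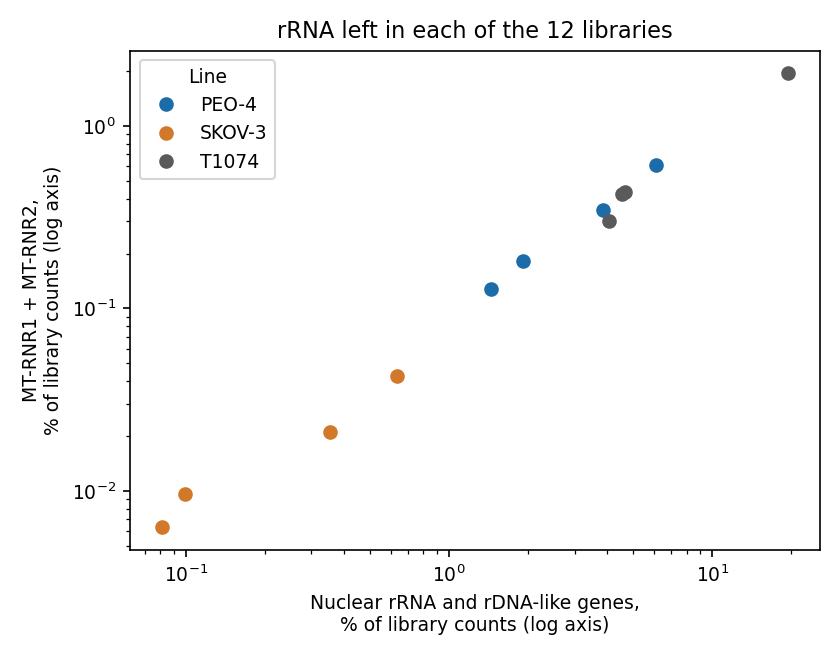
Percent of each library's counts on MT-RNR1 and MT-RNR2 together (log axis) against the percent on nuclear rRNA and rDNA-like genes (log axis), 1 point per library. The 12 points lie close to a line over the whole range, with the 4 SKOV-3 libraries at the lower end and T1074 replicate 1, at 19.5% and 1.94%, at the upper end.

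The 22 tRNAs, which carry the amino acids for the 13 proteins, were all but absent from these libraries. They span 59 to 75 bases, and all had an effective length of 0 and were listed at 0 TPM in every library. Expected counts came to 37 fragments in all 12 libraries together, 25 in PEO-4, 12 in SKOV-3 and 0 in T1074, and 15 of the 22 genes had none. The 7 with fragments were MT-TA with 13, MT-TY (tyrosine) with 9, MT-TM (methionine) with 7, and MT-TQ (glutamine), MT-TN (asparagine), MT-TC (cysteine) and MT-TS1 (serine) with 2 each. Of these 7, 6 lie on the minus strand, which holds 8 of the 22 tRNAs, and the 6 took 30 of the 37 fragments. As for MT-ND6, fragments of these 6 and of RNA transcribed from the other strand cannot be told apart. No library had more than 4 fragments of a tRNA gene. The tRNAs with fragments were tested only in alternatives without the filter on low counts, in edgeR and in DESeq2. DESeq2 values of single tRNAs were not kept. MT-TY had 0, 3, 2 and 3 fragments in PEO-4 and 0, 0, 1 and 0 in SKOV-3, against 0 in every T1074 library. In edgeR without that filter it was called higher in PEO-4 than in T1074 (edgeR adjusted p = 0.0285). None of the other 6 was called in any comparison there, with MT-TA nearest at an edgeR adjusted p of 0.0537 for PEO-4 against T1074. These values rest on a few fragments a line.

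Copies of mitochondrial genes in the nuclear genome share sequence with their sources, and reads that fit both are divided by estimate. Of 404 such genes in the annotation, 4 passed the filter on low counts, and those above 10 CPM in a line were MTND2P28 and MTATP6P1. MTND2P28, a copy of MT-ND2, had 285, 229, 228 and 250 counts in PEO-4, 84.7, 106, 75.1 and 83.6 in SKOV-3, and 853, 700, 1072 and 775 in T1074. It took 2.15% to 2.49% of the counts of the pair it forms with MT-ND2 in PEO-4, 2.10% to 2.36% among SKOV-3 libraries, and 9.19% to 10.8% in T1074. MTATP6P1, a copy of MT-ATP6, took 11.0% to 12.2% of its pair in PEO-4, 10.5% to 11.7% among SKOV-3 libraries, and 10.7% to 12.3% in T1074. Thus 1 copy kept about the same proportion to its source in all lines and the other did not. With the counts of all copies added to their sources, every call on the 15 mitochondrial genes stayed as it was.

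The nuclear genes that serve the mitochondrial genome were counted from lists set by function. Over all tested genes, 36.3% were higher and 37.8% lower in PEO-4 than in T1074, and 33.3% higher and 34.5% lower in SKOV-3 than in T1074. Of 18 genes for transcription and replication of mitochondrial DNA, 6 were higher and 6 lower in PEO-4 (33.3% each), and 5 higher and 7 lower in SKOV-3 (27.8% and 38.9%). POLRMT, the RNA polymerase of mitochondria, averaged 40.7 ± 3.46 CPM in PEO-4 and 167 ± 16.2 CPM in SKOV-3, against 39.7 ± 8.83 CPM in T1074. It was the largest increase of its list in SKOV-3, the line with the lowest mitochondrial mRNA share, with a log2 fold change of 2.07 ± 0.15 (edgeR adjusted p = 1.66e-08). TOP1MT, the mitochondrial topoisomerase I, was the largest increase in PEO-4, at 68.6 ± 9.001 CPM against 6.09 ± 0.886 CPM in T1074 (log2 fold change 3.502 ± 0.15, edgeR adjusted p = 9.99e-11). TOP3A, a topoisomerase of nuclei and mitochondria, was the largest decrease in both, with 20.6 ± 0.909 CPM in PEO-4 and 22.6 ± 1.70 CPM in SKOV-3, against 108 ± 26.7 CPM in T1074.

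Of 8 regulators of mitochondrial biogenesis, 4 were higher and 3 lower in PEO-4 than in T1074 (50.0% and 37.5%, beside 36.3% and 37.8% of all genes), and 3 were higher and 3 lower in SKOV-3 than in T1074 (37.5% each, beside 33.3% and 34.5%). PPARGC1A, the coactivator PGC-1 alpha, averaged 13.6 ± 1.91 CPM in PEO-4 and 8.65 ± 0.850 CPM in SKOV-3, against 0.102 ± 0.0601 CPM in T1074, and was the largest increase in both comparisons. The largest decreases were NRF1, a transcription factor for nuclear genes of respiration, in PEO-4 (log2 fold change -0.73 ± 0.12, edgeR adjusted p = 9.23e-05) and the coactivator PPRC1 in SKOV-3 (log2 fold change -1.52 ± 0.23, edgeR adjusted p = 3.68e-05).

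Of 22 genes for processing, stability and decay of mitochondrial RNA, 8 were higher and 9 lower in PEO-4 than in T1074 (36.4% and 40.9%), and 7 were higher and 7 lower in SKOV-3 than in T1074 (31.8% each), about the shares of all genes, 36.3% and 37.8% in PEO-4 and 33.3% and 34.5% in SKOV-3. TRNT1, which adds the CCA end to tRNAs, had the largest increase in PEO-4 (23.1 ± 1.87 against 8.02 ± 1.20 CPM in T1074), and GRSF1, an RNA-binding protein of mitochondrial RNA granules, the largest in SKOV-3 (261 ± 15.1 against 73.1 ± 6.97 CPM in T1074). The largest decreases were ANGEL2 in PEO-4 (15.3 ± 0.436 against 61.3 ± 11.7 CPM in T1074) and PTCD1, a protein of the pentatricopeptide repeat family, in SKOV-3 (5.50 ± 0.848 against 16.3 ± 4.21 CPM in T1074). Among the 23 genes that modify mitochondrial rRNA and tRNA, 6 were higher and 8 lower in PEO-4 (26.1% and 34.8%), and 4 higher and 7 lower in SKOV-3 (17.4% and 30.4%), beside the same shares of all genes. YRDC, which takes part in making the threonylcarbamoyl mark on tRNAs, gave the largest increase in both lines (log2 fold changes 1.34 ± 0.13 for PEO-4 and 0.81 ± 0.13 for SKOV-3), and MRM3, a methyltransferase of the large mitochondrial rRNA, the largest decrease in both (-1.90 ± 0.15 for PEO-4 and -1.54 ± 0.15 for SKOV-3).

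The 22 genes for charging mitochondrial tRNAs are aminoacyl-tRNA synthetases together with QRSL1, GATB and GATC, the 3 subunits of the amidotransferase that makes glutaminyl-tRNA. In PEO-4, 8 were higher and 8 lower than in T1074 (36.4% each, beside 36.3% and 37.8% of all genes), with a median log2 fold change of 0.01. In SKOV-3, 12 were higher, QRSL1 among them, and 5 lower than in T1074 (54.5% and 22.7%, beside 33.3% and 34.5% of all genes), with a median of 0.35. MARS2, the methionine enzyme, was the largest increase in PEO-4 (31.7 ± 3.66 against 8.53 ± 3.41 CPM in T1074) and GARS1, the glycine enzyme shared with the cytosol, the largest decrease (97.5 ± 15.9 against 249 ± 19.9 CPM in T1074). In SKOV-3 the largest increase was YARS2, the tyrosine enzyme (69.8 ± 2.87 against 21.9994 ± 4.46 CPM in T1074). Of the 78 mitochondrial ribosomal proteins, 25 were higher and 35 lower in PEO-4 (32.1% and 44.9%, median -0.26), and 30 higher and 22 lower in SKOV-3 (38.5% and 28.2%, median 0.12), than in T1074. MRPL12, of the large subunit, was higher in PEO-4 by 2.00 ± 0.15 on the log2 scale and MRPS15, of the small subunit, higher in SKOV-3 by 1.66 ± 0.11, while MRPL55 fell by 1.78 in PEO-4 and MRPS25 fell by 1.61 in SKOV-3.

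The nuclear subunits of the 4 complexes were more often higher than lower in both carcinoma lines, beside background shares of 36.3% higher and 37.8% lower in PEO-4 and 33.3% higher and 34.5% lower in SKOV-3. Complex I in PEO-4 lay nearest these shares. Of 38 nuclear subunits of complex I, 16 were higher and 11 lower in PEO-4 (42.1% and 28.9%), and 18 higher and 8 lower in SKOV-3 (47.4% and 21.1%), than in T1074. NDUFB9 was the largest increase in PEO-4 (336 ± 9.92 against 40.8 ± 3.61 CPM in T1074) and NDUFA11 in SKOV-3 (281 ± 14.2 against 72.5 ± 12.3 CPM in T1074), and the largest decreases were NDUFA6 in PEO-4 (log2 fold change -1.83 ± 0.11) and NDUFB8 in SKOV-3 (log2 fold change -1.39 ± 0.15). Of the 11 tested nuclear subunits of complex IV, out of 14 listed, 8 were higher and 1 lower in PEO-4 (72.7% and 9.09%), and 7 higher and 0 lower in SKOV-3 (63.6% and 0%). The list lacks COX4I1, whose symbol its search pattern missed. COX6C had the largest increase in both, at 114 ± 9.06 CPM in PEO-4 and 70.3 ± 9.01 CPM in SKOV-3, against 18.2 ± 7.26 CPM in T1074. Of the 17 tested subunits of ATP synthase, out of 18 listed, 10 were higher and 0 lower in PEO-4 (58.8% and 0%), and 11 higher and 3 lower in SKOV-3 (64.7% and 17.6%). ATP5ME was the largest increase in both (65.2 ± 4.50 CPM in PEO-4 and 23.2 ± 1.65 CPM in SKOV-3, against 10.8 ± 4.04 CPM in T1074). ATP5MF was the largest decrease in SKOV-3 (log2 fold change -1.21 ± 0.15, edgeR adjusted p = 7.47e-06). Median log2 fold changes of the lists, for PEO-4 first and SKOV-3 second, were 0.08 and 0.26 for complex I and 0.72 and 0.70 for complex III. They were 0.46 and 0.49 for complex IV and 0.59 and 0.65 for ATP synthase, whereas the medians of the mitochondrial mRNAs were 0.13 and -1.42.

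The list of complex III held a subunit all but missing from SKOV-3. Of its 10 nuclear subunits, 5 were higher and 3 lower in PEO-4 (50% and 30%), and 7 higher and 3 lower in SKOV-3 (70% and 30%), than in T1074. UQCRH, the hinge subunit beside cytochrome c1, came to 2 counts over the 4 SKOV-3 libraries, while the 4 PEO-4 libraries held 14525 and the 4 T1074 libraries 4853. Scaled, that is 0.0003 of the T1074 level (95% exact interval 3.63e-05 to 0.00108, for counting error only). UQCRHL, a near-identical copy without introns that shares reads with it, averaged 5.21 ± 0.377 CPM in PEO-4 and 0.0306 ± 0.0275 CPM in SKOV-3, against 1.61 ± 0.348 CPM in T1074. The largest increases of the list were CYC1, cytochrome c1, in PEO-4 (341 ± 16.5 against 66.7 ± 6.77 CPM in T1074) and UQCRC2, a core protein, in SKOV-3 (156 ± 11.2 against 72.2 ± 10.9 CPM in T1074), and UQCR10 was the largest decrease in PEO-4 (21.5 ± 1.297 against 44.4 ± 6.43 CPM in T1074). For the genes of these lists given without a p, the edgeR adjusted p was 0.000139 or lower.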

How the data were processed

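Total RNA of 12 libraries, 4 of each line, was sequenced as paired ends of 75 bases after rRNA depletion (RiboNaut) and a directional library kit. By the submitters' processing notes and the methods, bcl2fastq 2.20.0.422, Trimmomatic 0.39, STAR 2.7.3a and RSEM 1.3.1 were used on hg38 with Gencode 39. The labels give the molecule as protein, but the values are RNA-seq. The authors deposited an expected count per transcript, RSEM's estimate of its fragments, not normalized, with shared reads divided by estimate. The authors also deposited TPM, which divides that estimate by effective length and scales it to a fixed sum.

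Expected counts were summed by gene and rounded. Of 61533 gene IDs, 61415 matched GENCODE 44, used for symbols, classes and coordinates. All 12 libraries were fitted together in edgeR 4.0.16 (R 4.3.3) with filterByExpr by line, TMM factors and the quasi-likelihood F-test, and p-values were adjusted over 19898 genes (Benjamini-Hochberg, 0.05). SE is the log2 fold change over the square root of F. CPM values use TMM factors. Ratios were tested by exact permutation (scipy). Nuclear rRNA and rDNA-like genes are annotated rRNA genes and the lncRNA genes in a window of chromosome 21. The window ran from 20000 bases before the first to 20000 bases after the last 5.8S gene there. All pairs of libraries within a line differed by more than sampling noise. Intervals cover counting error only, since reads carry no molecular identifiers.

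The members and lists were chosen with earlier results of these data known. Named are the mitochondrial mRNAs and rRNAs, the tRNAs with fragments and MT-TS2. Each nuclear list gave, per comparison with T1074, its largest called change in each direction. A mean of at least 10 CPM in 1 line was required, and nuclear copies above that level were named too. A gene that this rule names is not reported here. Other genes (LRPPRC, SLIRP, UQCRHL, COX4I1 and markers) were added. Alternatives were library-total, RLE and other scalings, DESeq2 1.42.0, a replicate block, other filters and thresholds, pairwise fits, TPM-derived counts, copies added and each library left out. The code was tested on simulated data.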

Additional observations from a re-analysis of the deposited data

Results flagged for a closer look

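Of 87 groups of 4 libraries checked for a value far from the other 3 by Dixon's test (gap to the nearest library over the group's range), 11 had one. About 1 in 20, or 4.35, would by chance if the groups were independent. They were not, since genes, their sums, ratios and shares come from the same libraries, so 11 cannot be read as an excess. In each case the outlying library was the highest and replicate 1 of its line. In T1074 replicate 1 the values were 8187 CPM for MT-RNR1, 11081 CPM for MT-RNR2, 360 CPM for MT-ND1, 0.318% of all counts for the 13 mRNAs together and 1.94% for both rRNAs together, and the next highest T1074 libraries had 1760 CPM, 2479 CPM, 145 CPM, 0.200% and 0.437%. In PEO-4 replicate 1 the values were 302 CPM for MT-ND1, 379 CPM for MT-ND2, 22.8 CPM for MT-ND4L, 314 CPM for MT-ND4, 249 CPM for MT-ND5 and 248 CPM for MT-CYB, 5 mRNAs of complex I and that of complex III, and the next highest PEO-4 libraries had 203, 225, 12.4, 176, 158 and 158 CPM. The MT-CO1, MT-CO2, MT-CO3, MT-ATP8, MT-ATP6, MT-ND3 and MT-ND6 mRNAs had no such library in any line. Both libraries also held the most nuclear rRNA of their line, 19.5% of counts in T1074 replicate 1 and 6.13% in PEO-4 replicate 1, and the part of this in the values was not tested.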

How the results depend on the processing

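Of 45 comparisons of a mitochondrial gene between lines, 30 were called, and 27 of these were called under every alternative other than the stricter thresholds. None of the called values changed sign in these fits. Scaling by library total moved the median of all genes by -0.16 for PEO-4 against T1074 and -0.20 for SKOV-3 against T1074 on the log2 scale, and scaling by nuclear protein-coding counts moved it by -0.21 for SKOV-3 against T1074 and 0.21 for PEO-4 against SKOV-3. The reversals in these fits were in genes that were not called. Outside them, the mean deposited TPM of MT-CO2 was lower in PEO-4 than in T1074, against its call. With library totals, MT-ND2, MT-ND3, MT-ND4 and MT-CYB became -0.019, -0.11, -0.11 and -0.11 in PEO-4 against T1074, and MT-CO3 became -0.10 in SKOV-3 against T1074, or -0.12 with nuclear protein-coding counts. MT-ND4L in PEO-4 against T1074 was 0.013 when only the 8 libraries of that pair were fitted, MT-ND3 was -0.029 with counts derived from TPM, and the log2 ratio of MT-ATP8 to MT-ATP6 in SKOV-3 against T1074 was -0.061 with TPM. With each library left out in turn, PEO-4 against T1074 ran from -0.054 to 0.44 for MT-ND2, -0.18 to 0.27 for MT-ND3, -0.16 to 0.41 for MT-ND4, -0.30 to 0.27 for MT-ND4L, -0.34 to 0.15 for MT-ND5, -0.32 to 0.0043 for MT-ND6, -0.056 to 0.57 for MT-ATP6 and -0.14 to 0.34 for MT-CYB, MT-CO3 in SKOV-3 against T1074 ran from -0.061 to 0.32, the log2 ratio of MT-ND6 to MT-ND5 in PEO-4 against T1074 from -0.17 to 0.019, and the number called higher in PEO-4 against T1074 from 2 to 6, with 6 without T1074 replicate 1. As summed TPM, the log2 ratio of the mRNA class was 1.15 for PEO-4 against SKOV-3, -0.33 for PEO-4 against T1074 and -1.48 for SKOV-3 against T1074, and per 100 nuclear rRNA counts, added after seeing the data, that of the rRNA class was 0.31, 0.047 and -0.26. The causes were not tested. Over all genes, an added minimum of 1 on the absolute log2 fold change left 4815 of 7524 genes lower in PEO-4 against T1074, 3897 of 6624 higher and 4368 of 6874 lower in SKOV-3 against T1074, and 4689 of 7304 lower in PEO-4 against SKOV-3.

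The replicate numbers did not pair the libraries: the deviations of 12 same-numbered pairs correlated at -0.08 to 0.07, with 0 over 0.1. With the replicate block, 3 mitochondrial genes were called higher in PEO-4 than in T1074, 13 lower in SKOV-3 than in T1074 and 15 higher in PEO-4 than in SKOV-3, where MT-ND6 was added.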
